A study of Homo sapiens with 9 samples.

Results

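YAP and TAZ are the transcriptional coactivators at the end of the Hippo pathway, and TEAD proteins are the DNA-binding partners through which they act. The genes described here are YAP1, WWTR1 (which encodes TAZ), TEAD1 and 7 genes usually read as their targets, CCN1, CCN2, AMOTL2, AJUBA, ANKRD1, AXL and LATS2. Members were taken by gene symbol from the platform's gene table, with the row of highest mean standing for a gene that has several rows. Of the 10 members, 8 were found among 14884 named genes. CCN1 and LATS2 had no row under their symbols and were not analysed here.

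Arrays were made from MDA-MB-231, a human triple-negative breast cancer cell line, that is, a line without estrogen receptor, progesterone receptor or HER2 amplification. There were 3 arrays from cells given 500 nM JQ1 for 12 h, 3 from cells given 500 nM JQ1 for 24 h, and 3 controls with no agent at time 0, each from its own total RNA sample of cells grown in DMEM with serum. JQ1 is a small molecule that displaces BET proteins, a family of bromodomain readers, from acetylated chromatin. The study was made to guide the choice of BET inhibitors in triple-negative breast cancer, and the question addressed here is which genes of the YAP and TEAD axis changed in abundance with the drug. All samples came from a single cell line, no vehicle is named for the controls, and the controls were taken at neither treatment time, so that JQ1, its solvent and time or density in culture cannot be told apart. The labels do not say whether the 3 samples of a group came from different cultures, and the p-values may therefore rest on technical variation alone.

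In the Hippo pathway the kinases MST1 and MST2 (STK4 and STK3), with the scaffold SAV1, activate LATS1 and LATS2, which phosphorylate YAP and TAZ and thereby keep them out of the nucleus. When the kinases are inactive, YAP and TAZ enter the nucleus, bind TEADs at GGAATG-type sites and raise genes such as CCN1, CCN2 and ANKRD1. Some targets, among them LATS2 and AMOTL2, act back on the pathway as inhibitors. MDA-MB-231 is known for a nonsense mutation in NF2, an upstream activator of the kinases, and for active YAP and TAZ.

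The promoter windows printed below all hold the letters of the TEAD motif, and windows without them are named after the sequences. Promoter windows ran from 250 bases before to 50 bases after the annotated start (RefSeq, GRCh38.p14) and were searched on both strands for GGAATG. Of the 10 members 8 had windows, 12 in all, and 7 of the 12 held the motif, in 7 genes. Over all 35116 windows of the table, 14.0% held it at least once, 1.37% at least 2 times and 0.128% at least 3 times. The sequences run 5′ to 3′ on the gene's strand and capitals mark GGAATG or, where the motif lies on the other strand, CATTCC. They come from CCN2 (chr6:131951323-131951622, minus strand), ANKRD1 (chr10:90921038-90921337, minus), the 1 of 2 AMOTL2 windows that holds the motif (chr3:134374398-134374697, minus), YAP1 (chr11:102110197-102110496, plus) and FOXF2, a further target described below (chr6:1389326-1389625, plus).
CCN2: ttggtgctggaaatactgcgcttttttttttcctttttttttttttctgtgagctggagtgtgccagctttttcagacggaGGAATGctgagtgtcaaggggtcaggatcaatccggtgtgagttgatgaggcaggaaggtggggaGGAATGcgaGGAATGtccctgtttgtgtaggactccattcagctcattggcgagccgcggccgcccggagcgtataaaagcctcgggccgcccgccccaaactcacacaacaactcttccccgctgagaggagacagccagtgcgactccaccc
ANKRD1: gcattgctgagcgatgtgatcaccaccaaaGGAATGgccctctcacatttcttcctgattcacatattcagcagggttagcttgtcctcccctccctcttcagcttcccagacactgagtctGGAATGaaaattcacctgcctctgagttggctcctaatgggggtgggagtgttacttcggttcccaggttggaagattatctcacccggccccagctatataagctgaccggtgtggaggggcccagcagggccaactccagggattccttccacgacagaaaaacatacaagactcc
AMOTL2: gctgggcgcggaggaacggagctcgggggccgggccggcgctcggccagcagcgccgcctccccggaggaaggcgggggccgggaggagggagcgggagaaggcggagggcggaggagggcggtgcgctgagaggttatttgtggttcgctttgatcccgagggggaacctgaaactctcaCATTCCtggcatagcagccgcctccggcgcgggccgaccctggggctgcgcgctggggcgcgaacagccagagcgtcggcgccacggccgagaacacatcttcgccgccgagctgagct
YAP1: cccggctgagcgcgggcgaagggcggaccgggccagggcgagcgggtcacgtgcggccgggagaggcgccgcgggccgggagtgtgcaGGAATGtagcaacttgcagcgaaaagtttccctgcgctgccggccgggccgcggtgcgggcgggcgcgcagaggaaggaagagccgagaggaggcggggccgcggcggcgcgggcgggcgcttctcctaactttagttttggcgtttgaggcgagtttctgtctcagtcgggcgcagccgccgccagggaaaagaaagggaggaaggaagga
FOXF2: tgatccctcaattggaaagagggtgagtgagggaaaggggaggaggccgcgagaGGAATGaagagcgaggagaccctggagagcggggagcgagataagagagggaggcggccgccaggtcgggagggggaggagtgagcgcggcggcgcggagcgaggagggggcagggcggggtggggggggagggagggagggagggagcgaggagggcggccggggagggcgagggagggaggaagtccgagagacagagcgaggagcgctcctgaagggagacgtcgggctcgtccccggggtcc
CCN2 held 3 matches, which begin 169, 104 and 95 bases before the annotated start, and a TATAAA motif (in 11.5% of all windows) 32 bases before it. ANKRD1 held 2, at 220 and 128 bases before the start, and 1 TGANTCA motif, the AP-1 type (in 7.71% of all windows), at 195 bases. AMOTL2 held 1, on the other strand, at 69 bases, YAP1 held 1 at 162 bases and FOXF2 held 1 at 196 bases. Of the member windows not printed, the second of AJUBA held 1 at 59 bases and the second of AXL 1, on the other strand, at 212 bases. That of LATS2 held 1, beginning 9 bases after the start. The other windows of AMOTL2, AJUBA and AXL and both WWTR1 windows held no GGAATG. Among further pathway genes described below, the second TAOK3 window held 1 match, and the first TAOK3 window and those of FRMD6 and TAOK2 held none. A window without GGAATG says only that these letters are not in it. A match is a run of letters and not evidence of binding.

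The 9 arrays had medians between 4.92 and 4.96 log2, and no pair of arrays was identical over all rows. Single rows did repeat a value exactly, such as YAP1 at 8.44588 in the second and the third JQ1 12 h array. Why they did was not tested, and an SD over such values may understate the spread. Control 3 stood apart from the other controls: over all rows its values differed from theirs with SDs of 0.385 and 0.389 log2, whereas controls 1 and 2 differed from each other with an SD of 0.213. Control 3 was nearer to some treated arrays than to the other controls, with SDs of 0.314 and 0.343 to the second and the third JQ1 12 h array and 0.355 to the second JQ1 24 h array. Relative to the mean of controls 1 and 2, control 3 was lower for AJUBA (by -0.80 log2), YAP1 (-0.71), WWTR1 (-0.51) and CCN2 (-0.39) and higher for ANKRD1 (0.37). Results are therefore given with and without it. Controls 1 and 2 were closer to each other than any 2 arrays of the same JQ1 group, whose differences had SDs of 0.250 to 0.297. The fit without control 3 may therefore understate the spread, and calls made only in that fit need caution. The markers of the line matched its label where they had rows, with CD44 and EPCAM in between and with the KRT18 row in doubt as described below. VIM, MSN and KRT18 averaged 10.54, 12.25 and 10.22, CD44 and EPCAM averaged 7.48 and 6.26, ESR1 and PGR averaged 5.04 and 4.09, and the fibroblast genes DCN and LUM averaged 2.99 and 3.36, and the endothelial genes PECAM1 and VWF averaged 4.26 and 4.97, where the median of named genes was 6.13. Of these markers KRT18 rose at both times (0.61, adjusted p = 0.0301, and 0.61, adjusted p = 0.0224) and EPCAM fell at 12 h (-0.28, adjusted p = 0.0485, and -0.26 at 24 h, adjusted p = 0.0520). VIM passed without control 3 (0.36, adjusted p = 0.0090, and 0.38, adjusted p = 0.0067) and not with it. The part of such shifts in the results below was not tested. KRT18 is a chromosome 12 gene, as are DCN, LUM and VWF. Its row number is nearer to that of LIMD1, a pathway gene on chromosome 3, than to theirs. What the KRT18 row reads was not tested. CDH1, COL3A1, PDGFRB, CDH5 and the leukocyte markers PTPRC and CD3E had no named row.

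At 24 h of JQ1 the RNA of the coactivator YAP1 fell while that of CCN2 and AMOTL2, genes read as its targets, rose. The YAP1 call was kept in 5 of 9 fits that left out 1 array. The targets ANKRD1, AJUBA and AXL were not called at 24 h, and FOXF2, a further target described below, fell. YAP protein and its activity were not measured. With all 9 arrays in 1 limma model, CCN2 rose at 12 h as the only called member (adjusted p under 0.05), 1 up and 0 down of 8 measured, where 7.93% of all genes were called (3.54% up, 4.39% down). At 24 h the count was 2 up and 1 down of 8, where 11.5% of all genes were called (5.17% up, 6.34% down). Treated and control arrays did not overlap for 2 higher and 1 lower member at 12 h, where this held for 22.2% of all genes, and for 3 higher and 1 lower at 24 h, where it held for 26.1%. Without control 3 the counts were 2 up and 3 down at 12 h, against 20.1% of all genes (9.57% up, 10.5% down), and 3 up and 1 down at 24 h, against 20.9% (9.61% up, 11.3% down). The median log2 difference of the 8 members was -0.11 at 12 h and 0.22 at 24 h, with 0.01 over all genes at either time. The arrays read RNA pooled over all cells, so a change in part of the cells, or fewer cells of a kind, and less RNA per cell cannot be told apart.

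**Figure D1:**
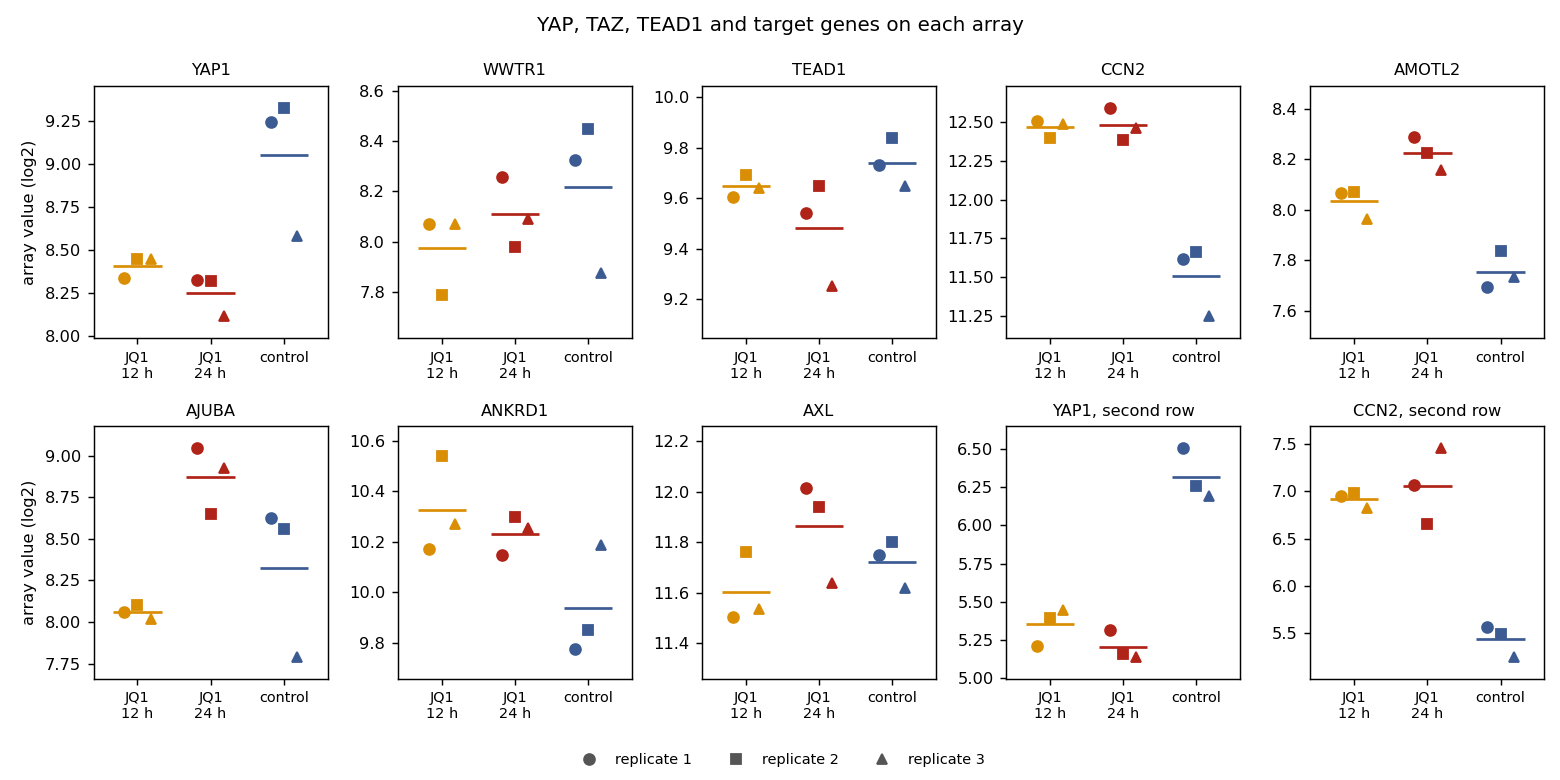
Array values (log2, vertical axes, each panel on its own range) of the 8 members and of the second rows of YAP1 and CCN2, for 3 JQ1 12 h, 3 JQ1 24 h and 3 control arrays. Symbols mark replicates and bars group means. Every JQ1 array lies below every control for YAP1 and above every control for CCN2 and AMOTL2, in the second rows of YAP1 and CCN2 too. What these second rows read was not tested. Control 3 lies apart from the other controls for YAP1, WWTR1, CCN2, AJUBA and ANKRD1.

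Among the coactivators, YAP1 stood at 8.34, 8.45 and 8.45 in the JQ1 12 h arrays and at 8.32, 8.32 and 8.12 in the JQ1 24 h arrays, against 9.24, 9.33 and 8.58 in the controls. Every treated array was below every control, and control 3 was the control nearest to them. The means were 8.41 ± 0.06 at 12 h and 8.25 ± 0.12 at 24 h, against 9.05 ± 0.41 in controls (SD, n = 3 each). At 24 h YAP1 was 1.74-fold lower (log2 difference -0.80, SE 0.18, limma adjusted p = 0.0197). At 12 h the difference was -0.64 (SE 0.18, adjusted p = 0.0583) and did not pass. Without control 3 it was -0.88 at 12 h (adjusted p = 0.00019) and -1.03 at 24 h (adjusted p = 7.2e-05). The 24 h call did not hold without control 1 (difference -0.70, adjusted p = 0.0728) or control 2 (-0.66, 0.0668). Nor did it hold without the first (-0.83, 0.0576) or the third (-0.73, 0.0858) of the JQ1 24 h arrays.

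A second, dimmer row carries the YAP1 symbol. It read 5.21, 5.39 and 5.45 at 12 h and 5.31, 5.16 and 5.14 at 24 h, against 6.51, 6.26 and 6.20 in the controls. These groups did not overlap and control 3 lay close to control 2. Used in place of the brighter row, it was called at 12 h (log2 -0.97, adjusted p = 0.0016) and at 24 h (-1.12, adjusted p = 0.00056). YAP1 is encoded on the plus strand, yet among the 20 named rows with the nearest row numbers 14 belonged to minus-strand and 1 to plus-strand genes of the same chromosome, where the brighter row had 2 and 12. Which strand the second row reads was not tested.

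WWTR1, which encodes TAZ, the paralog of YAP, read 8.07, 7.79 and 8.07 at 12 h and 8.26, 7.98 and 8.09 at 24 h, against 8.32, 8.45 and 7.88 in the controls. The groups overlapped through control 3. The differences were -0.24 (95% interval -0.58 to 0.10, adjusted p = 0.440) at 12 h and -0.11 (-0.45 to 0.24, adjusted p = 0.754) at 24 h, and neither passed. Without control 3 the 12 h difference was -0.41 and passed (adjusted p = 0.0351), while the 24 h difference was -0.28 and did not (0.142).

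TEAD1, the DNA-binding partner, read 9.61, 9.69 and 9.64 at 12 h and 9.54, 9.65 and 9.25 at 24 h, against 9.73, 9.84 and 9.65 in the controls. Only JQ1 24 h replicate 3 lay well below the rest. The difference was -0.09 (95% interval -0.33 to 0.15, adjusted p = 0.716) at 12 h and -0.26 (-0.50 to -0.02, adjusted p = 0.168) at 24 h, and neither passed the test over all genes. Without JQ1 24 h replicate 3 the 24 h difference was -0.14.

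**Figure D2:**
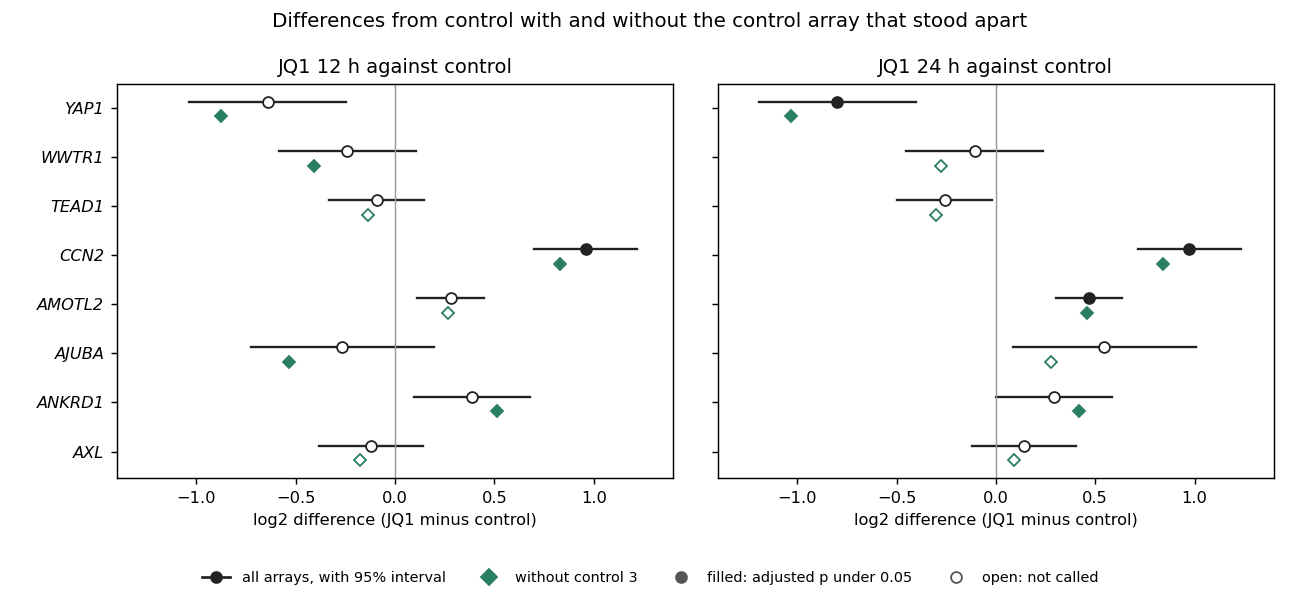
Log2 differences from control (horizontal axes) of the 8 members at 12 h (left) and 24 h (right). Circles with 95% intervals are from all arrays, diamonds from the fit without control 3, and filled symbols passed the test. CCN2 lies near 0.96 in both panels and YAP1 at -0.64 and -0.80, and AJUBA lies at -0.27 at 12 h and at 0.55 at 24 h.

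Among the secreted targets, CCN2, which encodes the matricellular protein CTGF, read 12.51, 12.40 and 12.49 at 12 h and 12.59, 12.38 and 12.46 at 24 h, against 11.61, 11.66 and 11.25 in the controls. All treated arrays were above all controls, and control 3 was the lowest array. CCN2 averaged 12.47 ± 0.06 at 12 h and 12.48 ± 0.11 at 24 h, against 11.51 ± 0.23 in controls (SD, n = 3 each). It was 1.94-fold higher at 12 h (log2 0.96, SE 0.11, adjusted p = 0.0023) and 1.96-fold higher at 24 h (log2 0.97, SE 0.11, adjusted p = 0.0014). The call held at both times without any single array, with differences from 0.83 to 1.05, the lowest without control 3. The promoter of CCN2 is the one above with 3 GGAATG matches. Windows of genes that fell or were not called held the motif too, and a link of the matches to the rise was not tested.

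A second row of CCN2 read 6.95, 6.98 and 6.83 at 12 h and 7.06, 6.66 and 7.46 at 24 h, against 5.57, 5.49 and 5.25 in the controls. It showed the same direction on a dimmer scale, and its differences were 1.48 (adjusted p = 0.0023) and 1.62 (adjusted p = 0.0011) when it stood for the gene. Only 4 of the 20 named rows with the nearest row numbers were genes of the chromosome of CCN2, so its place in the gene was not checked. The other CCN family members were not called in any comparison (4 of 4 measured, median difference -0.02 at 12 h and -0.02 at 24 h). The largest of these were -0.23 for CCN3 at 12 h and 0.15 for CCN6 at 24 h.

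Among the targets that feed back on the pathway, AMOTL2, an angiomotin-family scaffold that holds YAP in the cytoplasm, read 8.06, 8.07 and 7.96 at 12 h and 8.29, 8.23 and 8.16 at 24 h, against 7.69, 7.84 and 7.73 in the controls. The 3 groups did not overlap with each other, and control 3 lay between the other controls. AMOTL2 was 1.39-fold higher at 24 h (log2 0.47, SE 0.07, adjusted p = 0.0048), with differences from 0.44 to 0.51 whichever array was left out, called each time. Between the times it differed by 0.19 (adjusted p = 0.690). At 12 h the difference was 0.28 (SE 0.07, adjusted p = 0.0528) and did not pass, nor did it without control 3 (0.27, adjusted p = 0.0518). The other angiomotins gave differences at 24 h of 0.07 for AMOT (adjusted p = 0.638) and 0.07 for AMOTL1 (adjusted p = 0.797).

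AJUBA, a LIM-domain protein that binds and restrains the LATS kinases, had the largest difference between 24 h and 12 h of the 8 members. It read 8.06, 8.10 and 8.02 at 12 h and 9.05, 8.65 and 8.93 at 24 h, against 8.63, 8.56 and 7.79 in the controls. All 24 h arrays were above all 12 h arrays and above all controls, the second of them only just above control 1, while the 12 h arrays lay between control 3 and controls 1 and 2. The 24 h arrays were higher than the 12 h arrays by 0.81 (SE 0.20, 1.76-fold, adjusted p = 0.452), which did not pass over all genes. In that comparison limma called 0 of 8 members and 1 of all genes (0.00672%, and that one lower). At an unadjusted p under 0.05 there were 3 of 8 members and 6.69% of all genes, and the unadjusted p of AJUBA was 0.0030. The 24 h and 12 h arrays did not overlap for 2 higher members, AJUBA and AMOTL2, and 1 lower member, YAP1, where this held for 5.76% of all genes in the higher and 7.11% in the lower direction. Without control 3 the difference was again 0.81, as the controls do not enter it. Its SE was then 0.10 and its adjusted p 0.0311, and 0.148% of all genes were called (0.047% up, 0.101% down). Of 18 alternatives this was the only 1 in which it passed, and a fit of the 2 JQ1 groups alone called 0 members. Against control AJUBA differed by -0.27 at 12 h (adjusted p = 0.539) and 0.55 at 24 h (adjusted p = 0.128), and without control 3 by -0.53 (adjusted p = 0.0087) and 0.28 (adjusted p = 0.124).

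ANKRD1, an ankyrin-repeat regulator of transcription and a standard YAP readout, read 10.17, 10.54 and 10.27 at 12 h and 10.15, 10.30 and 10.25 at 24 h, against 9.78, 9.85 and 10.19 in the controls. Treated arrays were above controls 1 and 2 and lay around control 3. The differences of 0.39 (SE 0.13, adjusted p = 0.110) at 12 h and 0.29 (SE 0.13, adjusted p = 0.198) at 24 h did not pass. Without control 3 they were 0.51 (adjusted p = 0.0103) and 0.42 (adjusted p = 0.0263) and passed, in the direction of CCN2.

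AXL, a receptor tyrosine kinase tied to invasion and drug tolerance, read 11.50, 11.76 and 11.54 at 12 h and 12.02, 11.94 and 11.64 at 24 h, against 11.75, 11.80 and 11.62 in the controls. The groups overlapped throughout. The difference was -0.12 (95% interval -0.39 to 0.14, adjusted p = 0.644) at 12 h and 0.14 (-0.12 to 0.41, adjusted p = 0.532) at 24 h, and no single left-out array brought a call. Of the related receptors and ligands 4 of 4 were measured and 1 was called: TYRO3 fell at 24 h (log2 -0.44, SE 0.10, adjusted p = 0.0205), while at 12 h it differed by -0.34 (adjusted p = 0.069). The TYRO3 call did not hold without control 2 or without the second or the third of the 24 h arrays (adjusted p up to 0.0759). The differences at 24 h were 0.18 for the receptor MERTK and 0.22 for their ligand GAS6, not called. Without control 3 GAS6 passed at 24 h (0.28, adjusted p = 0.0471).

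The further lists, 6 in number, describe the rest of the pathway, with 45 of 56 listed genes measured. At 12 h 3 of the 45 rose and 4 fell (15.6% called, against 7.93% of all genes), and at 24 h 4 rose and 4 fell (17.8%, against 11.5%). Without control 3 the counts were 7 up and 7 down at 12 h, where 20.1% of all genes were called, and 8 up and 9 down at 24 h, where 20.9% were. Beside those described below, the genes called in that fit alone, named after their values were seen, were SAV1 and MOB1A (up at both times), MAP4K4 and TJP1 (down at both times), CCDC80 (up at 12 h) and DOCK5 (up at 24 h). Median differences of the lists lay between -0.15 and 0.10, beside 0.01 over all genes.

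**Figure D3:**
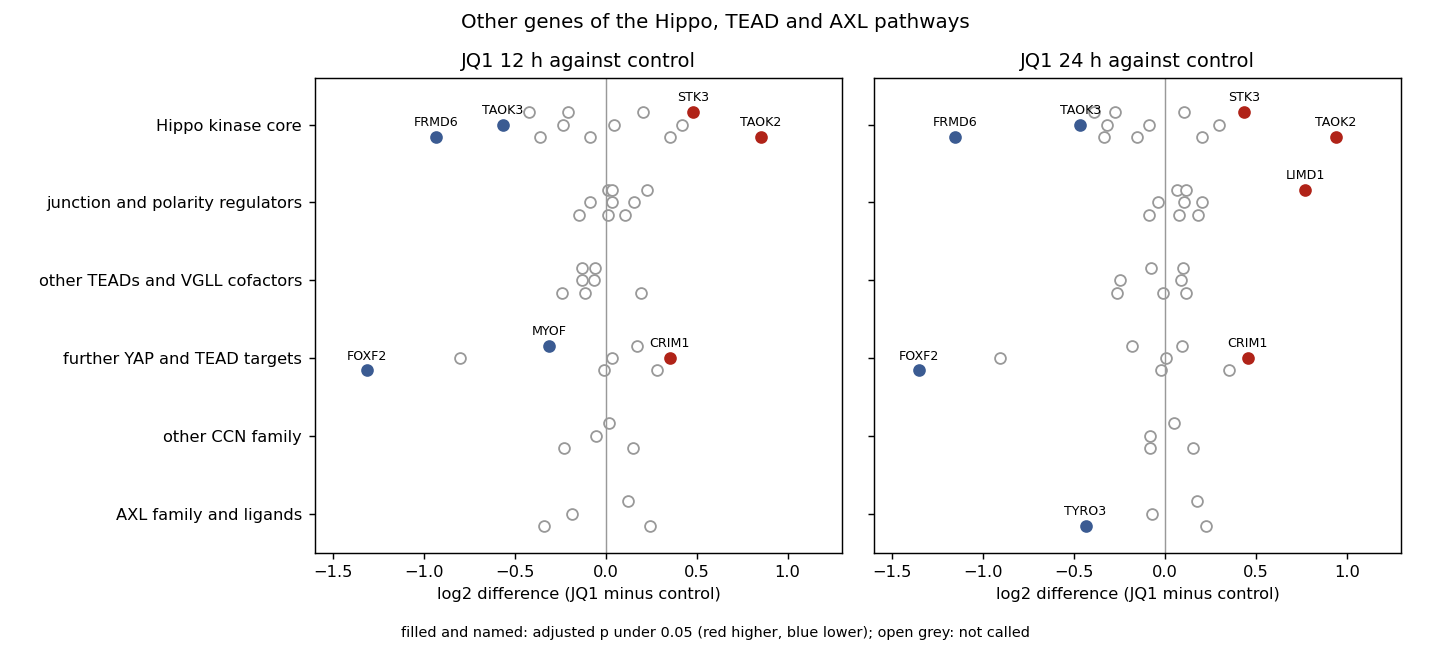
Log2 differences from control (horizontal axes) of the 45 measured pathway genes by list, at 12 h (left) and 24 h (right). Filled named points passed the test, red higher and blue lower, and open grey points did not. FOXF2 and FRMD6 are the lowest called points and TAOK2 the highest in both panels, and LIMD1 is called at 24 h only among the panels shown.

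In the Hippo kinase core 13 of 14 genes were measured, with 2 up and 2 down at each time. The strongest change was that of FRMD6, a FERM-domain protein upstream of the kinases. FRMD6 read 8.01, 8.16 and 8.16 at 12 h and 7.91, 8.09 and 7.66 at 24 h, against 9.18, 9.19 and 8.76 in the controls. All treated arrays were below all controls, by 1.91-fold at 12 h (log2 -0.93, SE 0.14, adjusted p = 0.0057) and 2.22-fold at 24 h (log2 -1.15, SE 0.14, adjusted p = 0.0016), and the calls held without any single array.

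The TAO kinases, which phosphorylate MST1 and MST2, did not move together. TAOK2 read 8.41, 8.53 and 8.40 at 12 h and 8.65, 8.42 and 8.54 at 24 h, against 7.37, 7.38 and 8.04 in the controls, and rose (log2 0.85, adjusted p = 0.0163, and 0.94, adjusted p = 0.0083). TAOK3 read 9.09, 9.05 and 9.32 at 12 h and 9.32, 9.26 and 9.17 at 24 h, against 9.83, 9.84 and 9.48 in the controls, and fell (log2 -0.57, adjusted p = 0.0211, and -0.46, adjusted p = 0.0352). Control 3 lay nearest to the treated arrays for both. TAOK1 differed by -0.23 and -0.27 (adjusted p = 0.123 and 0.0605), and without control 3 by -0.27 (adjusted p = 0.0535) and -0.31, which passed (adjusted p = 0.0287). Without control 1, control 2 or any of the 12 h arrays TAOK2 did not pass at 12 h (adjusted p up to 0.0669), and at 24 h it passed without any single array. TAOK3 passed in 5 of 9 such fits at 12 h (adjusted p up to 0.0856) and in 2 of 9 at 24 h (up to 0.130). It failed at both times without control 1, control 2, or the first or the second of the 12 h arrays.

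STK3, the kinase MST2, rose by 0.48 at 12 h (adjusted p = 0.0406) and 0.43 at 24 h (adjusted p = 0.0472). It read 5.18 to 5.64 and 5.21 to 5.45 in those arrays, against 4.84 to 4.95 in the controls. Without 1 array the call was kept in 2 of 9 fits at 12 h and 3 of 9 at 24 h, among them the fit without control 3 (adjusted p up to 0.135 and 0.167 in the others). Its paralog STK4 differed by -0.20 and -0.33, not called with all arrays, and without control 3 by -0.31 and -0.44 (adjusted p = 0.0496 and 0.0098). NF2, named here for its known mutation in this line, differed by -0.36 and -0.39 (adjusted p = 0.184 and 0.127).

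Among junction and polarity regulators 9 of 11 genes were measured, with 0 called at 12 h and 1 up at 24 h. That gene was LIMD1, a LIM protein of the AJUBA family. LIMD1 read 7.82, 7.95 and 7.95 at 12 h and 8.44, 8.37 and 8.54 at 24 h, against 7.50, 7.60 and 7.93 in the controls. All 24 h arrays lay above all 12 h arrays and all controls. LIMD1 was 1.71-fold higher than control at 24 h (log2 0.77, SE 0.11, adjusted p = 0.0033, called without any single array), and 0.54 higher at 24 h than at 12 h (adjusted p = 0.376, and adjusted p = 0.046 without control 3). At 12 h it differed from control by 0.23 (adjusted p = 0.288), and without control 3 it was called, 0.35 higher (adjusted p = 0.0164), whereas the difference of AJUBA in that fit was -0.53. WTIP, the other family member, differed from control by 0.18 at 24 h (adjusted p = 0.260), and the protocadherin FAT4 by 0.20 (adjusted p = 0.547).

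The other TEADs and the VGLL cofactors, which compete with YAP for TEAD binding, were all measured (7 of 7) and none was called by limma in any comparison with or without control 3. Taking for each gene its larger difference from control, the largest were -0.27 for VGLL1 at 24 h (adjusted p = 0.111), -0.25 for TEAD2 at 24 h (adjusted p = 0.331) and 0.19 for TEAD4 at 12 h (adjusted p = 0.534). At an unadjusted p under 0.05 the count was 0 of 7 at 12 h, where 21.6% of all genes passed, and 1 of 7 at 24 h, where 25% did.

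**Figure D4:**
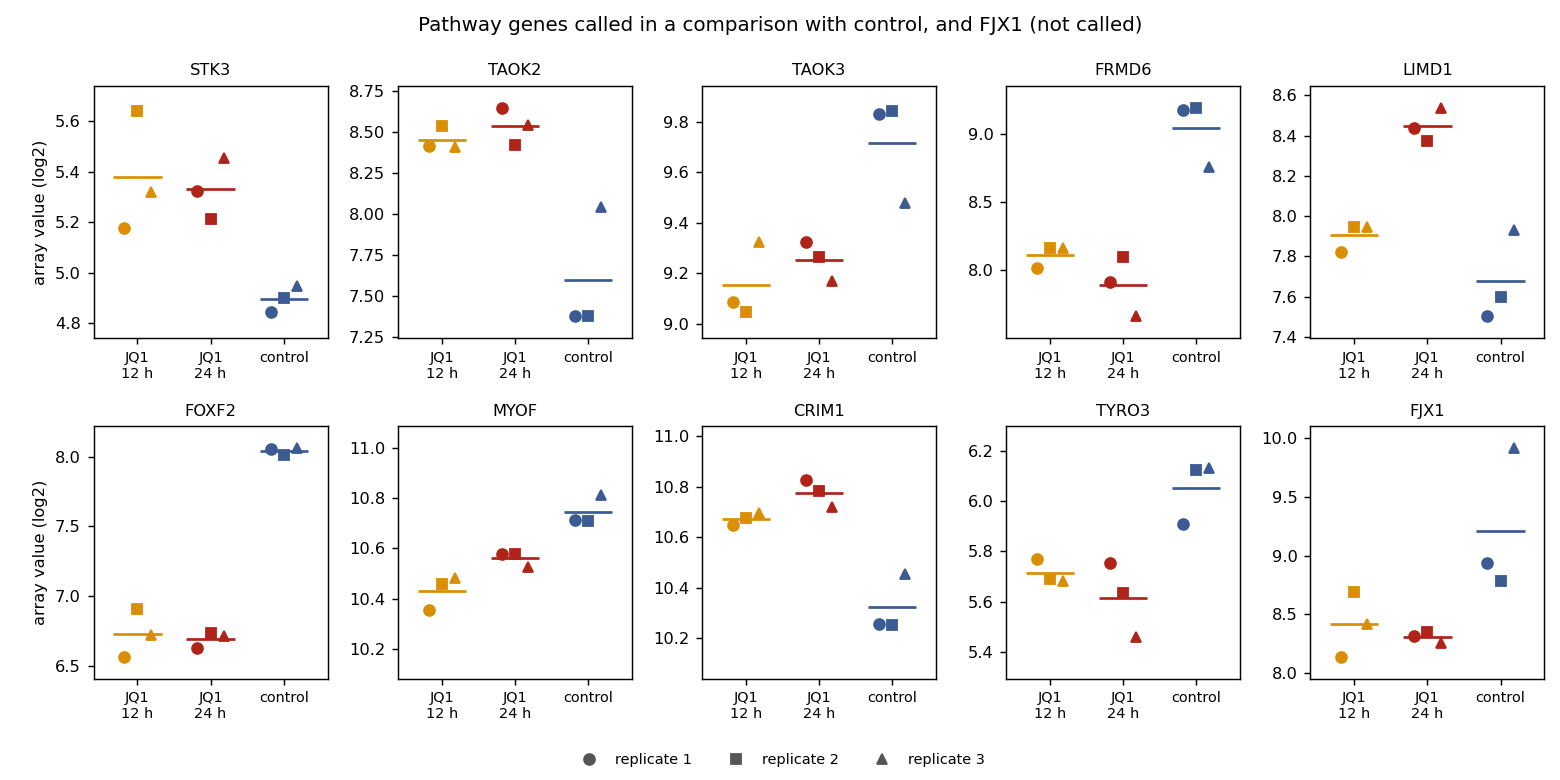
Array values (log2, vertical axes, each panel on its own range) of the 9 pathway genes called in a comparison with control and of FJX1, which was not called, for 3 JQ1 12 h, 3 JQ1 24 h and 3 control arrays. Symbols mark replicates and bars group means. FOXF2 and FRMD6 lie lower in every treated array than in every control, LIMD1 is highest in the 24 h arrays, and control 3 is far above the other controls for FJX1.

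Of 16 further target genes 8 were measured, and they did not share a direction: at 12 h 1 rose and 2 fell, and at 24 h 1 rose and 1 fell, with medians of 0.01 and -0.01. FOXF2, a forkhead transcription factor, read 6.56, 6.91 and 6.72 at 12 h and 6.63, 6.73 and 6.71 at 24 h, against 8.05, 8.01 and 8.06 in the controls. The groups were far apart and the 3 controls lay close together. FOXF2 was 2.48-fold lower at 12 h (log2 -1.31, SE 0.09, adjusted p = 0.00018) and 2.55-fold lower at 24 h (log2 -1.35, SE 0.09, adjusted p = 9.8e-05), and the calls held without any single array.

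CRIM1, a membrane protein that binds bone morphogenetic proteins, rose by 0.35 at 12 h (adjusted p = 0.0261) and 0.46 at 24 h (adjusted p = 0.0067). Its values ran from 10.65 to 10.70 and from 10.72 to 10.83, against 10.25 to 10.46 in the controls. MYOF, a membrane repair protein, fell by 0.31 on the log2 scale at 12 h (adjusted p = 0.0279) and differed by -0.18 at 24 h (adjusted p = 0.136). Without control 1, control 2 or any of the 12 h arrays neither gene passed at 12 h (adjusted p up to 0.104 for CRIM1 and 0.0884 for MYOF), while CRIM1 passed at 24 h without any single array. FJX1, a secreted kinase named here after its values were seen, read 8.14 to 8.69 and 8.25 to 8.35, against 8.78 and 8.94 in controls 2 and 1 and 9.92 in control 3, and was not called (-0.80, adjusted p = 0.109, and -0.91, adjusted p = 0.0586), while without control 3 the differences were -0.45 (adjusted p = 0.0543) and -0.55 (adjusted p = 0.0204).

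Across the 9 arrays, the genes outside these lists with the profile closest to CCN2 were KIAA0513 (Pearson r = 0.993), MIDN (0.992) and DGAT1 (0.989), and those closest to YAP1 were PTPDC1 (0.996), ZC3H7A (0.991) and GARS1 (0.989), out of 2187 genes whose SD over the arrays was at least 0.3. The arrays fall into treated and control samples with control 3 apart, so these values mostly describe that shared grouping, over 9 arrays, and say nothing of shared control.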

How the data were processed

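Per the labels' protocols, total RNA was labelled with biotin and hybridised to Affymetrix Human Gene 2.0 ST arrays, 1 per sample. The authors deposited 1 table of log2 values with 53617 rows and 9 arrays. The unit was read from the values, which ran from 2.01 to 13.88. Transcriptome Analysis Console is the tool named in the submitters' processing notes. Its version, the background correction, normalization and probe summary are not given in the sources used here. Scanner files were not used here, so another background correction was not tried.

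Gene names came from the platform's annotation table, where 16098 rows had 1 symbol, 0 had several and 37519 are unnamed here. All 16098 matched the RefSeq table (GRCh38.p14) by gene ID. The row with the highest mean stood for a gene, which left 14884 genes. All 9 arrays entered 1 linear model with a mean for each group, in limma 3.58.1 (R 4.3.3), with empirical Bayes moderation and no trend, and p-values were adjusted over all genes (Benjamini-Hochberg). The threshold for a call was an adjusted p under 0.05. Adjusted p-values in the text come from this fit or, where said, from a refit without an array or with another row. No filter was applied. The fit was run on simulated data with independent noise, changes planted at 24 h only and no outlying array. That run cannot show how the fit behaves with an array such as control 3. Values that look normalized between arrays give changes relative to the other genes. The 3 arrays per group limit the precision.

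Members and lists were chosen with earlier results of these data known. All members are named, and of each list the genes called, or up to 3 with the largest differences. Replicate numbers were not taken as pairs: residuals of same-numbered arrays correlated between -0.316 and 0.224. Alternatives were each array left out, the replicate number as a block, a variance trend, array weights, quantile or median scaling, a filter on dim genes, pairwise fits, every named row and, added after seeing the data, the second rows of YAP1 and CCN2.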

Additional observations from a re-analysis of the deposited data

Results flagged for a closer look

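AJUBA stood out because all 3 JQ1 24 h arrays lay above the control mean and all 3 JQ1 12 h arrays below it. The difference between the times was 0.812 on the log2 scale (SE 0.20). By limma it did not pass with all arrays (adjusted p = 0.452) and passed without control 3 (adjusted p = 0.0311). That was the only 1 of 18 alternatives in which it passed. The fit of the 2 JQ1 groups alone and the fit with array weights called 0 members between the times. No other member or pathway gene showed such opposite moves, and 0 were called between the times with all arrays.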

How the results depend on the processing

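CCN2 at both times and AMOTL2 at 24 h kept direction and call in all 18 alternatives (CCN2 0.83 to 1.48 at 12 h and 0.84 to 1.62 at 24 h, AMOTL2 0.44 to 0.51). YAP1 at 24 h kept its direction in all 18 and its call in 13 (-1.12 to -0.66). At 12 h YAP1 was called in 4 (without control 3, with array weights, without dim genes and by its second row, whose strand was not tested). The values 1.48, 1.62 and -1.12 came from the second rows. Several alternatives, such as leaving out an array of the other time, leave a difference from control unchanged. Its direction was fixed in advance there, and only its SE and adjusted p could move. The setting with second rows of YAP1 and CCN2 leaves the values of AMOTL2 as they were. Leaving out 1 array gave 1 to 5 called members at 12 h, 2 to 4 at 24 h and 0 to 1 between the times, 2 to 14, 5 to 17 and 0 to 1 called pathway genes, and 543 to 2986, 786 to 3111 and 1 to 22 called genes in all. The highest counts were those without control 3. Array weights, which gave control 3 a weight of 0.213 and the others 0.692 to 1.97, gave 6 and 5 members, 17 and 17 pathway genes and 3498, 3764 and 14 genes in the 3 comparisons (0 members and 0 pathway genes between the times). With only the groups compared in the fit there were 577 and 994 genes and 2 pathway genes at 12 h. Without dim genes 2 members were called at 12 h, as with the second rows of YAP1 and CCN2. With the replicate block 1, 3 and 0 members and 967, 1478 and 1 genes were called; the numbers are not taken as pairs, since 2 of 9 pairs correlated above 0.1 and 2 of 9 arrays matched their own number best. Signs turned for uncalled differences near 0: WWTR1 at 24 h without control 2 (0.0083, range -0.277 to 0.0083 over single left-out arrays), and, between the times, ANKRD1 without JQ1 12 h replicate 2 (0.011, range -0.174 to 0.011) and CCN2 without JQ1 12 h replicate 2 (-0.018) or JQ1 24 h replicate 1 (-0.041, range -0.041 to 0.064). Where counts moved, the cause was not tested beyond the arrays named. Without detection calls, how far a dim row such as STK3 lies above background is unknown.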
